A study of Homo sapiens with 12 samples.

Results

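Of 8 genes that mark the neuronal cytoskeleton and the proneural programme, 7 could be followed in human embryonic stem cells before and after 6 days of differentiation. They are the microtubule genes MAP2, TUBB3, STMN2 and DCX, the RNA-binding protein genes ELAVL3 and ELAVL4, and the proneural factor gene NEUROG2. The members were given as a list of names, and a probe set was taken as a member when the platform's annotation gave it 1 of those symbols alone. That gave 16 of 54675 probe sets: 4 for ELAVL4, 3 for ELAVL3, 2 each for MAP2, TUBB3, STMN2 and DCX, and 1 for NEUROG2. No listed probe set carried NEUROD1, the other proneural factor of the list, which was not analysed here.

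RNA came from H9, an established human embryonic stem cell line, at passages 28 to 35. Cells of all 4 groups carried a Tet-on construct, from which doxycycline (Dox) induces GCNF. This nuclear receptor without a known ligand is the product of NR6A1 and is known as a transcriptional repressor. Undifferentiated cells in mTeSR were left untreated (d0) or kept in Dox at 1 µg/ml over 4 days (d0 with Dox). Differentiating cells were kept for 6 days in DMEM/F12 with 15% serum and either 1 µM retinoic acid (RA) or 1 µg/ml Dox, and no day 6 group without an added agent was among the 12 arrays. Each group held 3 arrays. The labels call them biological replicates without saying how the cultures were separated, nor whether the line was 1 clone, and the p-values cover only how far these arrays lie apart. The design text asks which genes GCNF regulates in undifferentiated cells (d0 against d0 with Dox) and in differentiated cells (the RA group against the Dox group).

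Newborn neurons rebuild their microtubules as they extend an axon and dendrites. TUBB3 encodes a neuronal β-tubulin, MAP2 a protein that binds dendritic microtubules, DCX a microtubule-binding protein of migrating young neurons, and STMN2 a growth cone protein that destabilises microtubules. ELAVL3 and ELAVL4 encode neuronal Hu proteins, which bind AU-rich elements of mRNAs, and NEUROG2 and NEUROD1 encode basic helix-loop-helix (bHLH) factors that bind E-boxes and start neuronal differentiation.

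The day 6 labels went against CYP26A1 and part of the NR6A1 probe sets, which should mark them. CYP26A1, which encodes an enzyme that degrades RA and is induced by it, read 271 ± 37.0 in the arrays labelled RA and 29590 ± 1005 in those labelled Dox (SD, n = 3 each). Of 14 measured RA-responsive genes, 13 were higher in the arrays labelled Dox and 0 lower, at an adjusted p under 0.05 in limma. With Dox and no RA at d0, 6 of the 14 were higher and 2 lower, against 7.75% and 5.16% of all genes. CYP26A1 read 4494 ± 252 at d0 and 6660 ± 280 with Dox. The NR6A1 probe set that Dox raised most at d0, from 26.8 ± 17.6 to 615 ± 40.8, read 336 ± 70.9 under the RA label and 29.2 ± 13.7 under the Dox label. Another read 566 ± 50.6 and 176 ± 24.2 under these labels, and another 406 ± 30.3 and 166 ± 9.11. A further 3 NR6A1 probe sets, the brightest at d0, ran the other way at day 6. Under the RA and Dox labels they read 528 ± 37.8 and 1009 ± 223, 201 ± 55.0 and 408 ± 36.9, and 207 ± 45.05 and 365 ± 18.6. All 3 were also higher with Dox at d0 (adjusted p = 0.00437 to 0.0472 in limma over all probe sets). The dimmest NR6A1 probe set read 13.2 ± 15.8 and 7.94 ± 2.83. The groups are therefore called RA-labelled and Dox-labelled, every day 6 direction rests on those labels, and each day 6 group is set against both d0 groups. The arrays' median signals ranged from 64.2 to 77.98, and the 3'/5' signal ratio of ACTB, a measure of RNA integrity and labelling, averaged 3.24 at d0, 3.86 at d0 with Dox, 2.59 in RA-labelled and 2.33 in Dox-labelled arrays. This ratio moved with the groups, and its part in the results below was not tested.

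The members followed different patterns. STMN2 was about 10-fold higher at day 6 under either label and did not pass the test between the day 6 groups. MAP2 was higher with Dox at d0 and highest in the Dox-labelled arrays, while the RA-labelled arrays were above d0 but did not pass the test against d0 with Dox. DCX was higher with Dox at d0 and lower at day 6 under either label, so it moved with MAP2 in undifferentiated cells and against it afterwards. "Rose" and "fell" mean an adjusted p under 0.05 in limma over 19775 genes, on log2(signal + 16), a scale that understates the change of dim genes. Log2 differences are given with their SE and signals with their SD, n = 3 arrays per group.

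**Figure D1:**
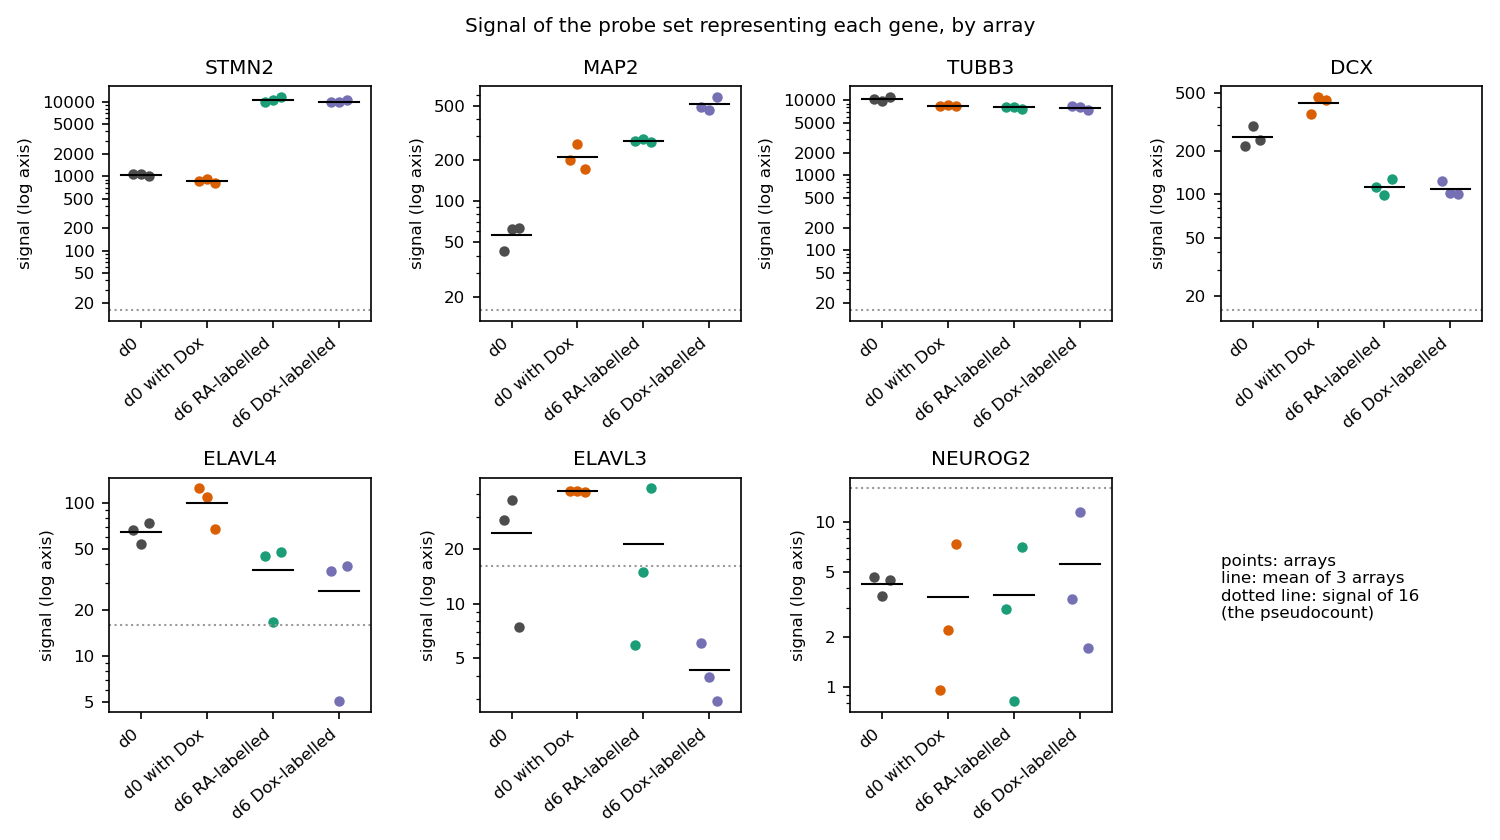
Signal of the probe set that represents each of the 7 genes, on a log axis, by group. Points are arrays, black lines the means of 3 arrays, and the dotted line marks a signal of 16. STMN2 separates the d0 from the day 6 arrays, MAP2 steps up across the groups from 56.6 to 511, DCX peaks at d0 with Dox, and NEUROG2 lies below 16 on every array.

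With Dox at d0, 2 of the 7 genes rose (MAP2 and DCX) and 1 fell (TUBB3), where 7.75% of all genes rose and 5.16% fell. In the Dox-labelled against the RA-labelled arrays 1 rose (MAP2) and 0 fell in limma, also 0 at an unadjusted p under 0.05, against 13.7% and 12.2% of all genes. From d0 to RA-labelled, 2 rose (STMN2, MAP2) and 2 fell (DCX, TUBB3), against 25.3% and 25.2%. From d0 with Dox to Dox-labelled, 2 rose (STMN2, MAP2) and 3 fell (DCX, ELAVL3, ELAVL4), against 22.2% and 23.9%. In the crossed pairs, Dox-labelled against d0 gave 2 rises (STMN2, MAP2) and 3 falls (DCX, TUBB3, ELAVL4) beside 24.6% and 23.8%, and RA-labelled against d0 with Dox 1 rise (STMN2) and 2 falls (DCX, ELAVL4) beside 23.0% and 25.3%. With 7 genes these counts lie within 1 or 2 genes of what the shares over all genes give, so they carry no statement about the set as a whole. Over all 54675 probe sets, the share called in either direction was 5.81% with Dox at d0 and 15.5% between the day 6 groups, and for the 4 comparisons of a day 6 with a d0 group, in the order just given, 38.1%, 34.9%, 37.5% and 35.9%. Of the members' 16 probe sets, 3, 1, 9, 11, 10 and 8 were called in these 6 comparisons. Comparisons that share a group are not independent of each other. The median log2 difference of the 7 genes was 0.50 with Dox at d0 (0.03 over all genes) and -0.05 between the day 6 groups (0.0009 over all genes). The first of these is the value of ELAVL4, which did not pass there (adjusted p = 0.476). For the 4 comparisons of a day 6 with a d0 group, in the same order, the medians were -0.16, -0.10, -0.40 and -0.08. In RNA from whole cultures, more cells expressing a gene and more RNA per cell cannot be told apart, and this holds for every difference below.

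**Figure D2:**
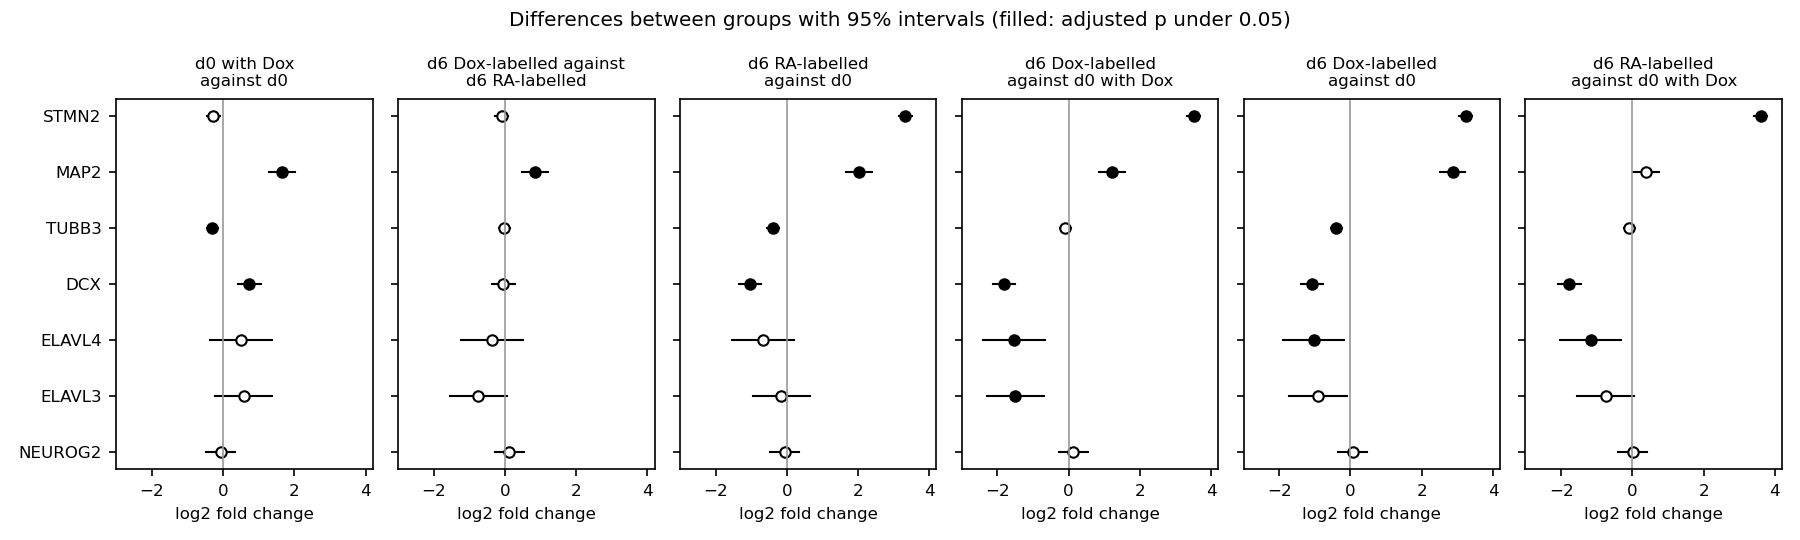
Log2 differences of the 7 genes in 6 comparisons, with 95% intervals. Filled points passed an adjusted p of 0.05. STMN2 lies at 3.24 to 3.6 in every comparison of a day 6 group with a d0 group, and DCX at -1.03 to -1.82.

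STMN2 read 1071, 1076 and 1007 on the d0 arrays and 874, 905 and 818 on the d0 arrays with Dox. It read 9786, 10588 and 11699 on the RA-labelled and 9808, 9781 and 10517 on the Dox-labelled arrays. Every day 6 array was higher than every d0 array, and the day 6 groups overlapped. STMN2 rose from d0 to RA-labelled by a log2 difference of 3.32 ± 0.08 (10.01-fold, adjusted p = 1.01e-09) and from d0 with Dox to Dox-labelled by 3.51 ± 0.08 (11.4-fold, adjusted p = 9.52e-10). Between the day 6 groups the difference was -0.09 with a 95% interval of -0.27 to 0.09 (adjusted p = 0.495). That interval leaves room for small differences either way, and none as large as the rise.

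With Dox at d0 all 3 STMN2 arrays were lower than the untreated ones, at a log2 difference of -0.28 ± 0.08 that missed the threshold (adjusted p = 0.0508). This difference passed in 7 of 23 alternatives, at an adjusted p between 0.0094 and 0.0497, and 1 of the others gave 0.162. Those 7 were changes of the processing, the variance model or the filter, and leaving out RA-labelled replicate 1 or 3, arrays of neither group compared. The gene's other probe set read 952 ± 60.7 at d0, 889 ± 53.3 with Dox, 10485 ± 319 in RA-labelled and 9582 ± 469 in Dox-labelled arrays. Its arrays did not overlap between the day 6 groups, at 10161 to 10799 (RA-labelled) and 9070 to 9990 (Dox-labelled). That difference did not pass in limma (log2 -0.13, adjusted p = 0.394 over all probe sets). This probe set gave the same rises (log2 3.44 and 3.41) and -0.10 with Dox at d0 (adjusted p = 0.624 over all probe sets). The direction from d0 to day 6 was thus the same in both probe sets, and the small difference with Dox passed in neither.

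Of the other stathmin genes of the list, none passed as a rise from d0 to day 6. STMN1, a stathmin of dividing cells, fell from 2585 ± 185 at d0 to 1319 ± 111 in RA-labelled arrays (log2 -0.96, adjusted p = 8.55e-06), and from 2811 ± 93.9 with Dox to 1517 ± 136 in Dox-labelled arrays (log2 -0.89). STMN3 and STMN4 passed in neither of these comparisons. The family members were singled out after their values were seen.

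MAP2 read 42.9, 62.9 and 64.1 at d0 and 202, 262 and 173 at d0 with Dox. It read 274, 286 and 273 on the RA-labelled and 489, 463 and 582 on the Dox-labelled arrays. No 2 of the 4 groups overlapped. MAP2 rose with Dox at d0 by 1.65 ± 0.16 on the log2 scale (3.13-fold, adjusted p = 0.000148), and was higher in Dox-labelled than RA-labelled arrays by 0.84 ± 0.16 (1.79-fold, adjusted p = 0.0036). From d0 to RA-labelled it rose by 2.03 ± 0.16, and from d0 with Dox to Dox-labelled by 1.22 ± 0.16.

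The MAP2 levels ran from Dox-labelled through RA-labelled and d0 with Dox down to d0, and the middle pair did not differ past the threshold (log2 0.38 ± 0.16, adjusted p = 0.0788). Without the second d0 array with Dox that pair gave 0.53 (adjusted p = 0.0188). The other MAP2 probe set is dimmer, at 26.9 ± 13.7, 42.2 ± 9.15, 64.9 ± 13.2 and 78.7 ± 15.1 in the same order of groups from d0 to Dox-labelled. It rose from d0 to RA-labelled (log2 0.95, adjusted p = 0.0081 over all probe sets) and from d0 with Dox to Dox-labelled (0.70, adjusted p = 0.0401). It passed neither with Dox at d0 (0.48, adjusted p = 0.317) nor between the day 6 groups (0.23, adjusted p = 0.607). When the gene's probe sets were averaged, the difference with Dox at d0 was 1.06, and it still passed. The order of the 4 group means was the same in both probe sets.

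DCX read 216, 295 and 236 at d0 and 358, 471 and 444 at d0 with Dox. It read 113, 99.5 and 127 on the RA-labelled and 123, 102 and 101 on the Dox-labelled arrays. The d0 groups stood apart from each other and from both day 6 groups, and the day 6 groups overlapped. DCX rose with Dox at d0 by 0.74 ± 0.14 (1.67-fold, adjusted p = 0.00837). It fell from d0 to RA-labelled by a log2 difference of -1.03 ± 0.14 (adjusted p = 0.000137) and from d0 with Dox to Dox-labelled by -1.82 ± 0.14 (adjusted p = 2.83e-06).

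Between the day 6 groups DCX differed by -0.05, with a 95% interval of -0.37 to 0.27 (adjusted p = 0.864). The gene's other probe set read 213 ± 9.40, 426 ± 57.6, 98.7 ± 9.08 and 101 ± 8.54 from d0 to Dox-labelled, and was called in the same comparisons in the same directions. DCX rose with Dox also when the 6 undifferentiated arrays were fitted alone, so that no day 6 array entered (adjusted p = 0.0494), as did MAP2 (adjusted p = 0.00983). Of the doublecortin relatives, singled out after their values were seen, DCLK2 rose from 14.1 ± 18.8 at d0 to 212 ± 52.0 in RA-labelled arrays. DCLK1 fell from 519 ± 141 at d0 to 213 ± 13.7 in RA-labelled arrays and rose from 305 ± 43.5 with Dox to 539 ± 41.3 in Dox-labelled arrays. Neither relative followed DCX in both.

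DCX and MAP2, which Dox raised at d0, passed the test of a change in the label pair's difference between d0 and day 6. The pairs are unlike, Dox against no agent at d0 and Dox against RA at day 6. Since the term subtracts the d0 difference, a gene that rose with Dox there tends to a value below zero. The difference of differences, the Dox-labelled minus RA-labelled difference less the Dox minus untreated difference, was -0.78 ± 0.20 for DCX (adjusted p = 0.0185) and -0.81 ± 0.23 for MAP2 (adjusted p = 0.0273). Of the 7 genes 2 were called below zero and 0 above, where 12.5% of all genes were called below and 11.7% above. Among those not called, ELAVL3 (-1.34, adjusted p = 0.0863) and TUBB3 had an unadjusted p under 0.05. Over all probe sets 13.4% were called for this term, and of the members' probe sets 3, both of DCX and 1 of MAP2. For MAP2 the call was lost in 9 of 22 alternatives, among them leaving out any of 7 single arrays (adjusted p = 0.0503 to 0.0655, at log2 differences of -0.66 to -0.82). TUBB3 (0.29, adjusted p = 0.0612) and STMN2 (0.19, adjusted p = 0.285) did not pass. With the day 6 labels exchanged, an alternative chosen after seeing the data, the term was -2.49 for MAP2 (adjusted p = 5.13e-05) and -0.69 for DCX (adjusted p = 0.0411).

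The first upstream windows of MAP2 and DCX, which rose together with Dox at d0, are shown beside that of ELAVL4, which held a nuclear receptor half-site. Each is the 250 bases before the transcription start of the first window listed in RefSeq (GRCh38.p14), printed 5′ to 3′ on the gene's strand. Capitals mark an E-box (CANNTG) or a nuclear receptor half-site (AGGTCA), searched on both strands. The windows lie at chr2:209661246-209661495 (plus strand), chrX:111412193-111412442 (minus strand) and chr1:50109583-50109832 (plus strand).
MAP2: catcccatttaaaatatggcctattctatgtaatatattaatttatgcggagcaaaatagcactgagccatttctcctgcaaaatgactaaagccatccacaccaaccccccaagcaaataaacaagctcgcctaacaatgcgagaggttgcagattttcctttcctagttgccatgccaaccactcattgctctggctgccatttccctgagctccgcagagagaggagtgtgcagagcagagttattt
DCX: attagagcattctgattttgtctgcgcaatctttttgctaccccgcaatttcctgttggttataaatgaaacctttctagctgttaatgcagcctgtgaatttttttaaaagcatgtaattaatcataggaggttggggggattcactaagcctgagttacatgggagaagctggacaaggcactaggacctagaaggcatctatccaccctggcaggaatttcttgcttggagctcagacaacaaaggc
ELAVL4: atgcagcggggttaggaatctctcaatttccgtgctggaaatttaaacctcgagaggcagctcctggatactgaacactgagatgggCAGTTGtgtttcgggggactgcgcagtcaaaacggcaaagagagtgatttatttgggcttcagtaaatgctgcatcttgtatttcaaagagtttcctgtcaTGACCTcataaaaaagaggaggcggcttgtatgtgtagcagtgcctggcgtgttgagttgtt
ELAVL4 held the E-box CAGTTG starting at base -163 and the half-site, read on the other strand as TGACCT, starting at -62. An E-box stood in 62.2% of the 27305 first windows of all genes and AGGTCA in 12.1%, so neither match is rare. The first windows of MAP2, DCX, TUBB3, NEUROG2 and NEUROD1 held neither. MAP2 and DCX have 3 windows each for their alternative starts, of which 2 and 1 held an E-box and 0 held AGGTCA. No listed window of these 6 genes held TCAAGGTCA, the extended half-site, which stood in 0.319% of first windows. A match is a run of letters and not a measured site.

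TUBB3 was bright on every array. It read 10475, 9796 and 11109 at d0 and 8349, 8600 and 8446 at d0 with Dox. It read 8095, 8152 and 7717 on the RA-labelled and 8238, 8045 and 7441 on the Dox-labelled arrays. The d0 arrays were higher than all others, and the day 6 groups overlapped. TUBB3 fell with Dox at d0 by a log2 difference of -0.30 ± 0.07 (1.23-fold, adjusted p = 0.0187) and from d0 to RA-labelled by -0.39 ± 0.07 (1.31-fold, adjusted p = 0.000869). The call with Dox was lost over all probe sets (adjusted p = 0.0632), in the 6 undifferentiated arrays alone (adjusted p = 0.0855) and without replicate 1 or 3 of either d0 group (adjusted p = 0.0539 to 0.0635).

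The other TUBB3 probe set fell further at day 6. It read 10689 ± 1047 at d0, 8331 ± 691 with Dox, 5693 ± 376 in RA-labelled and 4816 ± 744 in Dox-labelled arrays. It fell from d0 with Dox to Dox-labelled (log2 -0.80 ± 0.13, adjusted p = 0.000712 over all probe sets), where the first probe set gave -0.10 (adjusted p = 0.293 over genes). Names ending in x_at, which both TUBB3 probe sets have, mark probes that may also bind related sequences, so signal from other tubulins cannot be told apart from TUBB3. Of those, singled out after their values were seen, TUBB2A fell from 19792 ± 2065 to 13751 ± 380 with Dox at d0 and TUBB2B from 10911 ± 1219 to 7657 ± 956. TUBA1A, an α-tubulin of young neurons, rose with Dox at d0 from 16084 ± 1656 to 20172 ± 523, and TUBB4A did not pass there. In RA-labelled arrays TUBA1A reached 34036 ± 1704, a rise from d0.

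**Figure D3:**
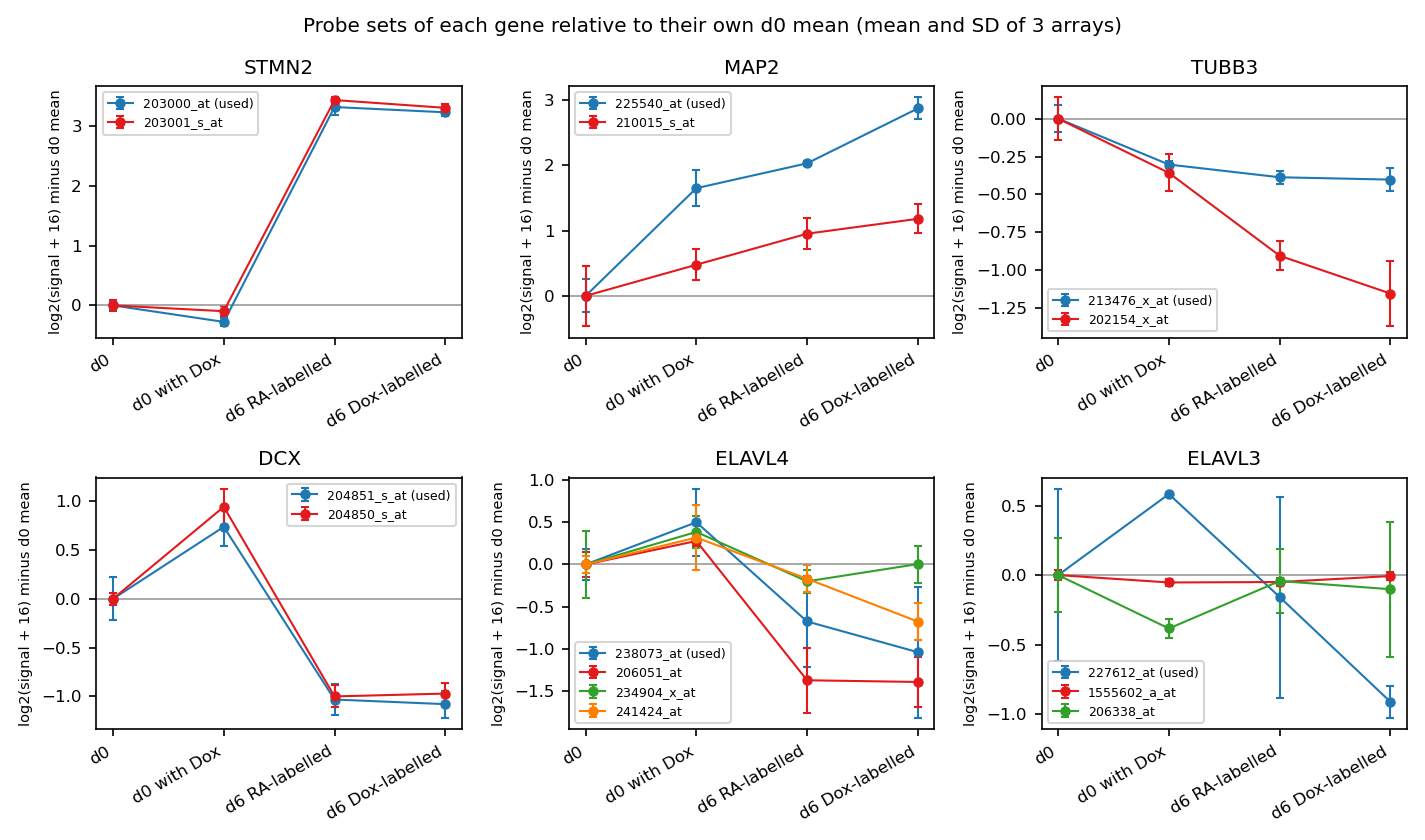
Each probe set of 6 genes relative to its own d0 mean on the log2(signal + 16) scale, as mean and SD of 3 arrays. Lines join the groups for the eye and stand for no time course. Both probe sets of STMN2 and of DCX run together, while those of TUBB3 part at day 6 and those of MAP2 differ in the size of the rise (1.65 and 0.48 with Dox at d0).

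ELAVL4 was dim. Its representative probe set read 66.0, 54.2 and 74.0 at d0 and 125, 109 and 67.5 at d0 with Dox. It read 45.3, 16.8 and 47.6 on the RA-labelled and 35.8, 5.08 and 39.0 on the Dox-labelled arrays. The d0 groups overlapped, as did the day 6 groups, and every d0 array was higher than every day 6 array. ELAVL4 fell from d0 with Dox to Dox-labelled by -1.54 ± 0.39 (adjusted p = 0.00786) and did not pass from d0 to RA-labelled (-0.67 ± 0.39, adjusted p = 0.185). Dox-labelled against d0 passed narrowly (-1.04, adjusted p = 0.0485) and was lost in 13 of 22 alternatives, down to -0.59 (adjusted p = 0.157) without the second Dox-labelled array. RA-labelled against d0 with Dox gave -1.17 ± 0.39 (adjusted p = 0.0289), which was lost with a pseudocount of 1 and without d0 with Dox replicate 1 or 2 or RA-labelled replicate 2 (adjusted p = 0.0788 to 0.109).

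A second ELAVL4 probe set gave a steadier picture. It read 51.6 ± 6.82 at d0, 65.6 ± 3.31 with Dox, 10.7 ± 7.48 in RA-labelled and 10.1 ± 5.22 in Dox-labelled arrays. It fell from d0 to RA-labelled (log2 -1.37 ± 0.20, adjusted p = 0.000268 over all probe sets) and from d0 with Dox to Dox-labelled (-1.67 ± 0.20, adjusted p = 8.5e-05). Since its day 6 means lie under 16, the size of these falls depends on the pseudocount. None of the 4 probe sets passed with Dox at d0 (adjusted p = 0.347 to 0.559) or between the day 6 groups. Of the other 2, a dim one fell from d0 with Dox to Dox-labelled (-0.99, adjusted p = 0.00206), where the dimmest did not pass (-0.38, adjusted p = 0.181). The brain-enriched relative ELAVL2 fell with Dox at d0 from 1506 ± 50.9 to 705 ± 38.6 (log2 -1.08 ± 0.08, adjusted p = 3.11e-05), and was lower again at day 6, at 333 ± 22.8 and 426 ± 35.1.

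ELAVL3 lay near the signal floor. Its brightest probe set read 28.8, 36.9 and 7.45 at d0 and 41.2, 41.6 and 40.7 with Dox. It read 5.94, 14.9 and 42.9 on the RA-labelled and 6.11, 3.94 and 2.91 on the Dox-labelled arrays. All Dox-labelled arrays were below 16, and 1 RA-labelled array stood as high as the d0 arrays with Dox. The fall from d0 with Dox to Dox-labelled was -1.496 ± 0.358 (adjusted p = 0.00595), and -0.39 (adjusted p = 0.0822) when the gene's probe sets were averaged. With a pseudocount of 1 it was -3.03. Single arrays decided other ELAVL3 comparisons: Dox-labelled against d0 went from -0.91 (adjusted p = 0.0595) to -1.26 (adjusted p = 0.0116) without d0 replicate 3, and RA-labelled against d0 with Dox from -0.74 (adjusted p = 0.121) to -1.13 (adjusted p = 0.013) without RA-labelled replicate 3. Means of the other 2 probe sets were under 16 in every group.

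NEUROG2, the proneural factor that could be read, gave 0.82 to 11.5 over the 12 arrays, under 16 on each. Its group means were 4.21 ± 0.58 at d0, 3.52 ± 3.41 with Dox, 3.61 ± 3.14 in RA-labelled and 5.55 ± 5.22 in Dox-labelled arrays. All groups overlapped, and no comparison passed (adjusted p = 0.619 to 0.976). At this signal a difference in NEUROG2 was not detectable with 1 probe set, and its RNA is not shown to be absent.

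The counts of the following lists are to be read against the shares of all genes given above. Of 16 measured neuronal bHLH factors, 0 passed in limma with Dox at d0 (2 had an unadjusted p under 0.05), and between the day 6 groups 0 rose and 3 fell. OLIG3 led those falls at 25.6 ± 16.7 in RA-labelled and 2.002 ± 0.546 in Dox-labelled arrays. In 6 or 7 of the 16, depending on the group, the mean lay under 16. Of 19 E-protein, ID, HES, Notch and REST complex genes, 5 rose and 2 fell with Dox at d0, and 10 rose and 0 fell between the day 6 groups, where 13 had an unadjusted p under 0.05. ID4, an inhibitor of bHLH factors, rose with Dox at d0 from 888 ± 81.7 to 3419 ± 234 (log2 1.93), and HEY2, a Notch target, fell from 1394 ± 95.4 to 410 ± 9.94. ID2, another inhibitor, rose between the day 6 groups from 2144 ± 302 to 7359 ± 474 (log2 1.78).

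Genes of the neuronal cytoskeleton moved in both directions. Of 32 measured microtubule and axon genes, which leave out the members, 6 rose and 6 fell with Dox at d0, and 10 rose and 9 fell between the day 6 groups. From d0 to RA-labelled 13 rose and 11 fell, and from d0 with Dox to Dox-labelled 17 rose and 8 fell. The medians of the list were -0.07, -0.03, -0.10 and 0.32 in these comparisons. MAPT, the tau gene, rose with Dox at d0 from 66.9 ± 15.5 to 118 ± 11.4 (log2 0.71), and MAP7, which recruits kinesin, fell from 3212 ± 273 to 1712 ± 268 (log2 -0.91). NEFM, a neurofilament subunit, read 278 ± 21.9 in RA-labelled and 4811 ± 69.6 in Dox-labelled arrays (log2 4.04, 16.4-fold, adjusted p = 1.64e-08), and MAP6 181 ± 23.5 and 78.5 ± 4.86 (log2 -1.05). The representative probe sets of STMN2, DCX and TUBB3 overlapped between the day 6 groups, which that of NEFM separated. The only other NEFM probe set gave -0.01 there, and 4 of 5 other MAPT probe sets pointed lower with Dox at d0, none of these being called.

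Factors that act after the proneural genes were mixed as well. Of 28 measured, 2 rose and 3 fell with Dox at d0, and 4 rose and 5 fell between the day 6 groups. In 5 to 10 of the 28, depending on the group, the mean lay under 16. SOX11 rose with Dox at d0 from 1653 ± 65.2 to 4685 ± 240 (log2 1.49), and EBF2 fell from 158 ± 12.5 to 3.47 ± 1.38, where the size depends on the pseudocount. ISL1, a factor of motor neurons that also marks mesoderm and amnion, rose between the day 6 groups from 65.6 ± 12.1 to 443 ± 38.1, and INSM1 fell from 39.6 ± 9.32 to 2.22 ± 1.38, where its only other probe set gave -0.02 and was not called. Of 22 ELAV family and other RNA-binding protein genes, 5 rose and 2 fell with Dox at d0, CELF3 rising most (15.8 ± 6.37 to 46.4 ± 6.85). Between the day 6 groups 7 rose and 2 fell, with KHDRBS2 rising (25.4 ± 9.94 to 160 ± 22.8) and CPEB1 falling (1083 ± 58.1 to 344 ± 20.9).

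Of 30 measured synapse genes, 2 rose and 2 fell with Dox at d0, and 2 rose and 7 fell between the day 6 groups. In 5 to 7 of the 30, depending on the group, the mean lay under 16. GAD1 rose with Dox at d0 from 94.96 ± 15.3 to 230 ± 3.03, and THY1 fell from 6931 ± 379 to 3972 ± 169. Between the day 6 groups the largest rise was GRIA2, near the floor at 5.56 ± 3.597 and 18.2 ± 5.50 with 1 of 2 other probe sets uncalled the other way, and the largest fall NRXN2, at 35.9 ± 21.1 and 3.41 ± 1.28, whose only other probe set gave -0.01 and was not called. Of 16 neuronal adhesion genes, 7 rose and 3 fell in each of these comparisons. NRCAM rose (227 ± 16.01 to 873 ± 73.7) and L1CAM fell (947 ± 44.0 to 535 ± 19.1) with Dox at d0, while ROBO2, a Slit receptor, rose (82.2 ± 28.3 to 1455 ± 63.8) and NFASC fell (148 ± 25.2 to 58.1 ± 10.1) between the day 6 groups. Of 20 neural progenitor genes 9 rose and 0 fell with Dox at d0 (10 at an unadjusted p under 0.05), FEZF2 most (19.0 ± 5.36 to 211 ± 19.7). Between the day 6 groups 6 rose and 3 fell, DACH1 rising (96.6 ± 14.9 to 1262 ± 62.5) and SOX3 falling (161 ± 17.4 to 94.1 ± 8.36). The only other L1CAM probe set gave -0.07 with Dox at d0, against -0.81, and was not called. For EBF2, CELF3, GAD1, NRCAM and SOX3 the other probe sets pointed the same way, and none was called.

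**Figure D4:**
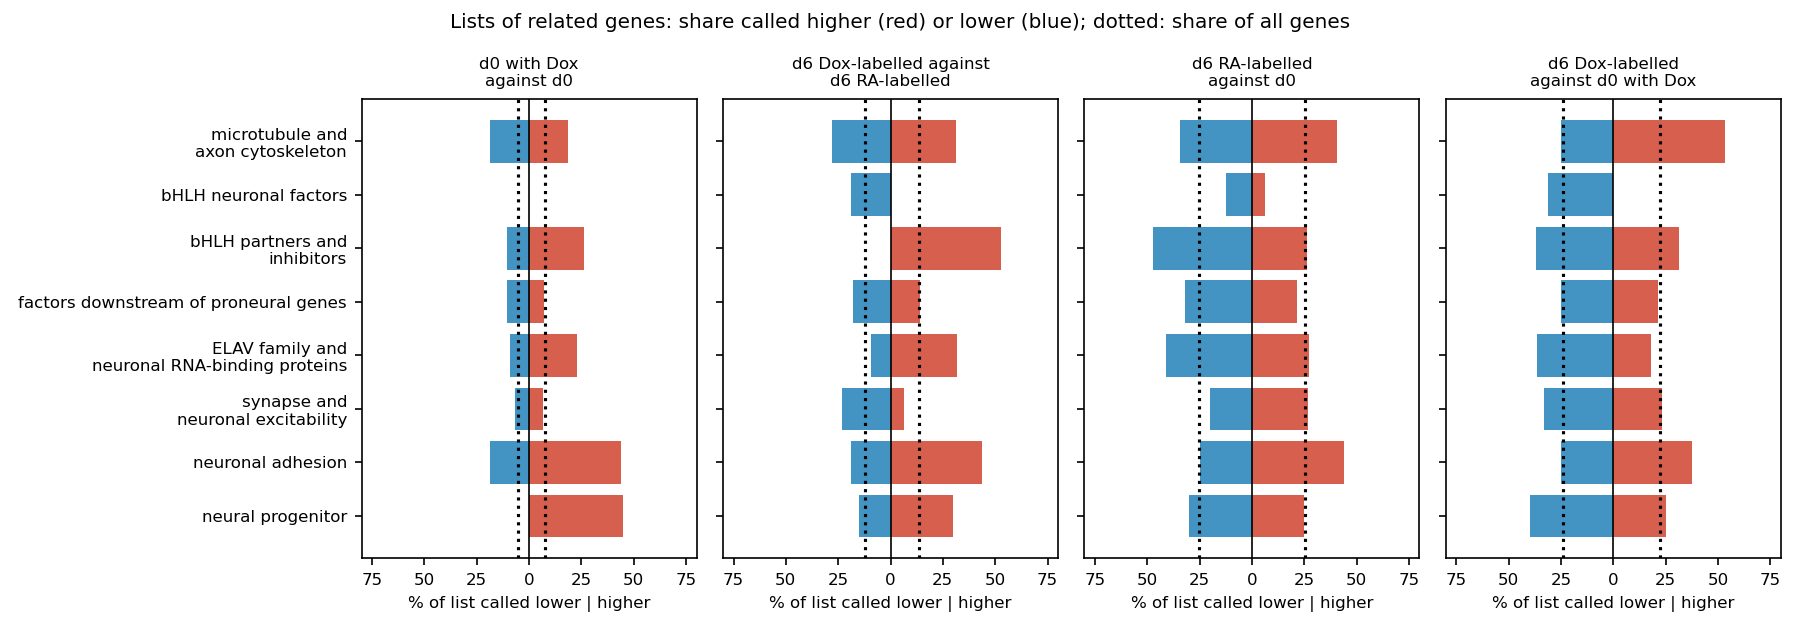
Share of each list called higher (red, to the right) or lower (blue, to the left) in 4 comparisons, in percent of its measured genes. Dotted lines give the share of all 19775 genes, for example 7.75% higher and 5.16% lower with Dox at d0. The neuronal bHLH factors have no bar with Dox at d0, and their partners and inhibitors have no lower bar between the day 6 groups.

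Markers of other cell types moved with the same groups. Summed signal of 10 pluripotency markers lay at 115068 to 125173 on d0 arrays, 102830 to 107490 with Dox, 20134 to 22180 in RA-labelled and 19334 to 20293 in Dox-labelled arrays, and all 10 fell from d0 to day 6 under either label. With Dox at d0, 1 of them rose and 3 fell. Though the day 6 sums lie close, 2 rose (LIN28A and L1TD1) and 6 fell from RA-labelled to Dox-labelled arrays. NANOG was among the falls, from 640 ± 46.0 to 36.7 ± 3.28. A summed signal follows its brightest genes, so counts are given beside it. Summed signal of 11 neural crest markers was 8671 to 9628 at d0, 5952 to 6543 with Dox, 8433 to 9225 in RA-labelled and 15456 to 16093 in Dox-labelled arrays. Of these markers 2 rose (TFAP2A, SOX9) and 1 fell with Dox at d0, the latter being ETS1, the brightest (5229 ± 281 to 2114 ± 260). From d0 to RA-labelled 7 rose and 3 fell, and between the day 6 groups 7 rose and 0 fell. Mesoderm and muscle markers (13) summed to at most 19222 on any d0 array and at least 38272 on any day 6 array, nearly all of it from the actin and smooth muscle genes ACTC1, ACTA2 and TAGLN, with 6 rising and 3 falling from d0 to RA-labelled and 4 rising and 0 falling between the day 6 groups. Endoderm markers (7) went from at most 968 on the d0 arrays to 2669 to 5668 in RA-labelled and 9922 to 12185 in Dox-labelled arrays. From d0 to RA-labelled 4 of them rose and 0 fell, and between the day 6 groups 2 rose (GATA6 and FOXA1) and 0 fell. GATA6 made up most of the Dox-labelled sum, at 8032 ± 179 against 1580 ± 132 in RA-labelled arrays, and SOX17 and FOXA2 passed in neither comparison. Trophoblast and amnion markers (9) reached 37277 to 39002 in Dox-labelled arrays against at most 8428 elsewhere, most of it IGFBP3 (26620 ± 1094 against 2448 ± 628 in RA-labelled arrays). Between the day 6 groups 4 of the 9 rose (IGFBP3, GATA3, KRT7 and ISL1) and 0 fell, while CDX2, CGA, HAND1, TFAP2C and VTCN1 did not pass. Glial markers (8) summed to 1959 to 2373 on the d0 arrays and 3255 to 6382 at day 6. From d0 to RA-labelled 2 rose (PDGFRA and CNP) and 2 fell (AQP4 and MBP), and GFAP was under 16 in every group. Pancreatic endocrine markers (6) summed to 48.5 to 140 over all arrays. Up to 5 genes of a cell type list in this paragraph had a group mean under 16, the most among the 6 pancreatic ones at day 6. The part of these cell types in the members' differences was not tested.

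Beyond the members, the neuron marker list holds SYT1, SNAP25, SYP and RBFOX3. SYT1, the calcium sensor of transmitter release, read 2084 ± 83.6 at d0, 2104 ± 22.6 with Dox, 3836 ± 102 in RA-labelled and 2141 ± 113 in Dox-labelled arrays. It was thus higher in the RA-labelled arrays than in the others, falling by -0.84 on the log2 scale to the Dox-labelled ones (adjusted p = 9.71e-06). RBFOX3, the NeuN antigen of mature neurons, fell from 255 ± 21.5 at d0 to 54.5 ± 20.2 in RA-labelled arrays, opposite to STMN2 and MAP2. SNAP25 read 67.0 to 116 as group means, and rose from d0 with Dox to Dox-labelled (log2 0.65, adjusted p = 0.0068). From d0 to RA-labelled SNAP25 missed the threshold (0.41, adjusted p = 0.0553). SYP, near the floor with group means of 15.9 to 48.4, rose from d0 to RA-labelled (log2 1.04, adjusted p = 0.0353). From d0 with Dox to Dox-labelled SYP did not pass (-0.37, adjusted p = 0.464). Of the 14 measured RA-responsive genes, 13 were higher in the Dox-labelled than the RA-labelled arrays and 0 lower in limma, also 13 at an unadjusted p under 0.05.

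Genes whose profile over the 12 arrays lay closest to STMN2 and MAP2 were sought among those brighter than the median gene. For STMN2 they were PEAR1 (Pearson r = 0.999), SNAI2 (0.998), a factor of epithelial-mesenchymal transition and neural crest, and TGFB2 (0.998), a growth factor. PEAR1 read 186 ± 11.8, 160 ± 16.3, 2047 ± 292 and 1920 ± 144 from d0 to Dox-labelled. For MAP2 they were MIR1915HG (0.987), WLS (0.982), which carries WNT proteins out of the cell, and LIMCH1 (0.981). LIMCH1 read 125 ± 7.31, 587 ± 21.7, 1099 ± 55.2 and 1709 ± 4.64. The 12 points share 4 groups, so such correlations mostly compare 4 means, and they are given as a description. The other 5 genes were too flat or too dim for this comparison.

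**Figure D5:**
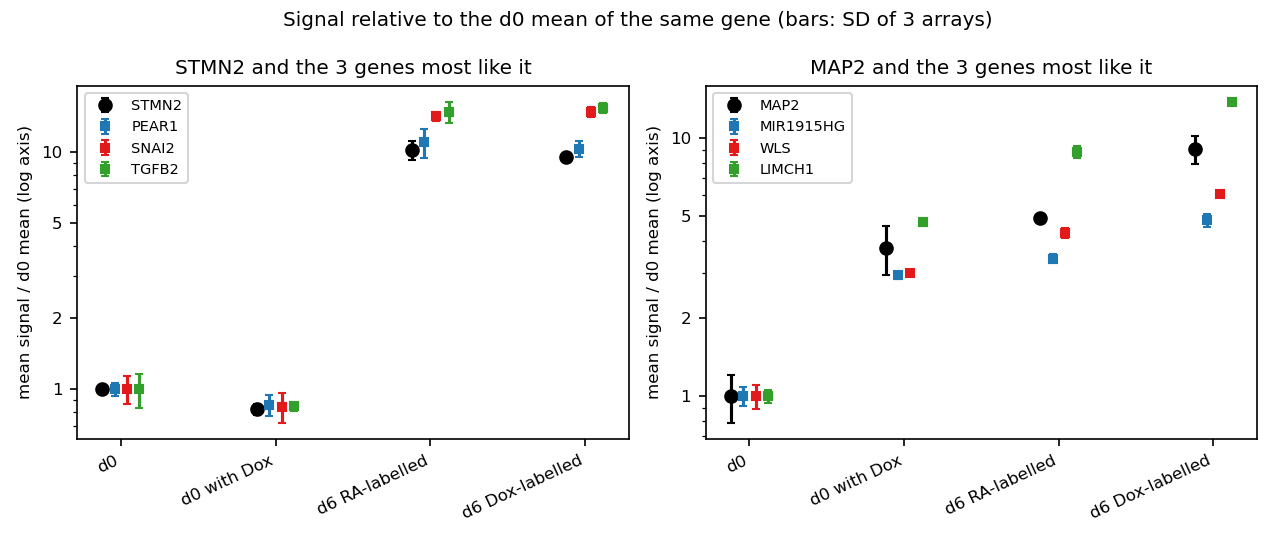
Mean signal of STMN2 and MAP2 and of the 3 genes most like each, divided by the gene's own d0 mean, on a log axis, with the SD of 3 arrays. STMN2 and its nearest genes are low in both d0 groups and high in both day 6 groups, and MAP2 and its nearest genes step up from d0 to the Dox-labelled arrays.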

How the data were processed

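Total RNA was extracted with TRIzol, labelled with biotin and read on 12 arrays, per the labels' protocols. Values deposited by the authors are intensities on a linear scale, 1 for each probe set, and their background correction, summary and scaling are not given in the sources used. Without the lowest and highest 2% of probe sets, each array's mean was 500.1, so levels are relative to the rest of an array. The number of arrays limits the precision.

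The platform annotation listed 42898 of 54675 probe sets, 41097 with 1 gene symbol and 1801 with several. Symbols were updated by gene ID for 41043 through RefSeq (GRCh38.p14), whose windows also gave the promoter sequences, with a window for 6 of the 8 members. Each of 19775 genes was represented by its brightest single-symbol probe set. Log2(intensity + 16) was fitted with limma 3.58.1 (R 4.3.3; lmFit, eBayes) to the 12 arrays as 4 group means (8 residual degrees of freedom) and Benjamini-Hochberg adjustment over genes. Probe sets of the members, NR6A1 and CYP26A1 were tested in a fit of all 54675. The script was tested on simulated data. Folds are antilogs of log2 differences.

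Named genes were all members, NR6A1 and CYP26A1, the largest called rise and fall of each list in the first 2 comparisons, and the 3 genes most correlated with a member whose group means span at least 4-fold and whose signal exceeds the median gene's. The members and lists were chosen with earlier results of these data known. Alternatives were other pseudocounts, normalizations, probe set choices, filters, variance models, array weights, the 6 arrays of a comparison, the replicate block, leaving out each array and, added after seeing the data, the day 6 labels exchanged in the difference of differences. Scan dates were not used here, so array batches were not tested.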

Additional observations from a re-analysis of the deposited data

Results flagged for a closer look

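DCX and MAP2 passed limma's test of the difference between the d0 and the day 6 differences. For DCX the Dox-labelled minus RA-labelled difference lay below the Dox minus untreated difference at d0 by -0.784 on the log2 scale (adjusted p = 0.0185), with 0.74 at d0 and -0.05 at day 6. For MAP2 the value was -0.808 (adjusted p = 0.0273), with 1.65 at d0 and 0.84 at day 6, so that MAP2 was higher with the Dox label at both times. The MAP2 call was lost when the gene's probe sets were averaged (-0.53, adjusted p = 0.125). The other MAP2 probe set gave -0.25 (adjusted p = 0.713 over all probe sets). The pair compared at day 6 is Dox against RA, and at d0 Dox against no agent. The day 6 labels went against CYP26A1, 13 of 14 measured RA-responsive genes and part of the NR6A1 probe sets. With exchanged labels the day 6 differences would change sign. The difference between the times would then be -2.49 for MAP2 (adjusted p = 5.13e-05) in place of -0.808, and -0.69 for DCX (adjusted p = 0.0411).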

How the results depend on the processing

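Of 1092 values of members under the alternatives, 1030 kept their side of the threshold, 33 lost a call, 29 gained one and 0 reversed. A reversal was a change of sign with a call in at least 1 of the fits. Values called in neither fit did change sign, such as ELAVL3 from d0 to RA-labelled (-0.551 to 0.162). Among genes above the median mean, which leaves out every member except STMN2 and TUBB3, the counts of members were 0 higher and 2 lower with Dox at d0, 0 higher between the day 6 groups, 1 higher and 1 lower in each day 6 group set against d0, 1 higher and 0 lower for Dox-labelled against d0 with Dox, 0 lower for RA-labelled against d0 with Dox, and 1 higher and 0 lower for the difference of differences. With Dox at d0, 2 members were lower (TUBB3 and STMN2) with a pseudocount of 64, median centring, a trended robust variance or array weights, and 0 over all probe sets or in the 6 arrays alone. RA-labelled against d0 with Dox gave 2 higher with a pseudocount of 64, quantile normalization, median centring or averaged probe sets, and 1 lower with a pseudocount of 1. The difference of differences gave 1 higher (TUBB3) with a pseudocount of 64, a trended robust variance or array weights, and 1 lower with a pseudocount of 64 or averaged probe sets. Leaving out single arrays gave 0 to 2 lower with Dox at d0, 1 to 2 higher and 1 to 3 lower for RA-labelled against d0 with Dox, and 0 to 1 higher and 1 to 2 lower for the difference of differences. Same-numbered replicates deviated together in no pair by a correlation over 0.1 (r = -0.0084 to 0.0483 over 18 pairs), so the numbers were not taken as pairs. As a hint from the data and not the design, an array correlated best with its own number, among the 3 arrays of another group, in 24 of 36 cases. With the replicate number as a block, the members called were 2 higher and 1 lower with Dox at d0 and 1 higher and 0 lower between the day 6 groups, as without it, and 2296 genes were called with Dox at d0 against 2552. In the 6 arrays alone 1522 genes were called there. The causes of these shifts were not tested, apart from the members the filter leaves out. NEUROG2, ELAVL3 and part of ELAVL4 lie near the signal floor, where the size of a difference depends on the pseudocount.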
